A study of Mus musculus with 2 samples.

Results

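Mir5105, Mir5109, Gm23935, Gm22641, Gm25732, Gm15662, Gm12054 and Lars2 were 8 gene entries that together took 53.3% of all reads in the control library and 43.7% in the telomere library. They were chosen from these same counts: each had a transcript with more than 0.8% of the reads of a library, and each was listed with 1 transcript, so that the set was 8 of 48876 transcripts and 8 of 24117 gene symbols. In all, 12 transcripts passed that share, and the other 4 were entries derived from ribosomal DNA (RP23-81C12 and AY036118). The shares therefore describe the choice of the entries and were not tested.

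The study asked which RNAs come down with telomeres when a tagged DNA-binding protein is used to isolate them. The 2 libraries came from Ba/F3, an interleukin-3-dependent mouse pro-B cell line labelled as strain C3H. The 3xFNLDD cells stably expressed a control protein, which carries 3 FLAG tags, a nuclear localisation signal and the DNA-binding and dimerisation domains of the bacterial repressor LexA. The 3xFN-Tel-TAL cells expressed instead a tagged TAL protein, a designed DNA-binding protein made to recognise telomere repeats. In both, chromatin was crosslinked with formaldehyde, sheared and precipitated with an antibody to FLAG, and the RNA released from it was sequenced from 60 ng of input. Both arms thus carried a foreign FLAG-tagged protein, and there was 1 library per condition, so no difference between conditions could be tested against the spread of replicates. Intervals given here are exact 95% Clopper-Pearson intervals, which cover counting error only and compare these 2 libraries, not the conditions, and reads amplified without molecular identifiers are not independent molecules.

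Ribosomal RNA is made in the nucleolus as a long precursor that is cut into the 18S, 5.8S and 28S RNAs, and it is the most abundant RNA of a cell. The mouse genome also holds scattered copies of pieces of abundant RNAs, and annotation has listed some of them as microRNA genes or pseudogenes. A microRNA gene yields a short hairpin precursor that is processed to a mature strand which represses messenger RNAs, a processed pseudogene is a copy made from spliced RNA, and Lars2 encodes the leucyl-tRNA synthetase of mitochondria. Whether the entries match ribosomal RNA was not tested, because a 28S, 18S or 45S sequence was not used here.

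The sequences below are shown because most entries are short and have full or partial matches elsewhere in the genome. Read counts cannot tell these apart where the bases are the same. Copies over more than 90% of the length were found only for Gm23935, Gm15662 and Gm25732. They are written 5′ to 3′ from the mouse assembly NCBIM37, on the strand of the entry, with GENCODE M1 positions matched by Ensembl transcript identifier, since the submitters' notes name GRCm38 for their own alignment. Capitals mark a run found without mismatch at another place in the genome, not always the longest such run, or, for Gm12054, in the AY036118 transcript. Of the 5 entries typed as microRNA, 4 are shown whole, and Gm22641, Gm15662, Gm12054 and Lars2 by a stretch.
Mir5105 (chr5:147072579-147072660, + strand): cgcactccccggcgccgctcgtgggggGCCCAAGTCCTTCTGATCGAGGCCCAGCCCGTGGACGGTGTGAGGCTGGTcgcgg
Gm23935 (chr16:11144218-11144274, + strand): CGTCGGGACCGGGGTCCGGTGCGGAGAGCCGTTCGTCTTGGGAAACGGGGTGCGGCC
Gm25732 (chr4:138894121-138894180, + strand): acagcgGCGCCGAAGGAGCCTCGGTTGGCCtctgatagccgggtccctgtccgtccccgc
Gm22641, bases 54 to 87 (chr7:137978004-137978037, + strand): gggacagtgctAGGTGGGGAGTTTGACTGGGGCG
Mir5109 (chr5:17282567-17282653, − strand): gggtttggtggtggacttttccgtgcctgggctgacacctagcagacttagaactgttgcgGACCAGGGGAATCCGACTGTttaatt
Gm15662, bases 1 to 100 (chr10:104675190-104675289, + strand): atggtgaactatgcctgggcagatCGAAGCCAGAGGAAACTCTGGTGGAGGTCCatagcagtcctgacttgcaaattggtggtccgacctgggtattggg
Gm12054, bases 1 to 60 (chr11:22609201-22609260, − strand): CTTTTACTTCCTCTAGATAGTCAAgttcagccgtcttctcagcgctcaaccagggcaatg
Lars2, bases 3017 to 3046 (chr9:123370918-123370947, + strand): CCTAAGGCGAGCTCAGGGAGGACAGAAACC

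The libraries held 7206183 reads (3xFNLDD) and 9774844 reads (3xFN-Tel-TAL) assigned to transcripts. A read level is given as RPM, the reads of a transcript per 1000000 assigned reads, and the ratio of the libraries as log2 of RPM in 3xFN-Tel-TAL over RPM in 3xFNLDD, so that values below 0 are lower in the telomere library. When the reads of both libraries were added, 2473 transcripts reached a total of 200, and their median log2 ratio was 0.37. The cell type was checked with markers: Csf2rb and Csf2rb2, which encode signalling subunits of receptors for interleukin-3 and related cytokines, had 583 and 751 reads in the control library and 1052 and 849 in the telomere library. Ptprc, the pan-leukocyte marker CD45, had 44 and 67 reads, Spi1 was not listed, and Kit had 2 reads in each. Of 8 markers of other cell types, 6 were listed, with 95 and 94 reads in all, most of them from the haemoglobin gene Hbb-b1 (49 and 73), while Alb and Epcam were not listed.

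Among the 8, the 5 entries typed as microRNA genes held most of the reads. Mir5105 had 1393976 reads in the control library and 1538914 in the telomere library, 19.3% and 15.7% of each, and ranked 2 among all transcripts in both. Its log2 ratio was -0.30 (interval -0.300 to -0.294). Gm23935, a 57-nt entry, had 730964 and 788167 reads, which made 10.1% and 8.06%, and a log2 ratio of -0.33. Both entries were thus a smaller part of the telomere library, although each had more reads there because that library was deeper. Gm22641 followed with 334505 and 395676 reads, 4.64% and 4.05% of each library and a log2 ratio of -0.20. Gm25732 had 224829 and 259467 reads, or 3.12% and 2.65%, with a log2 ratio of -0.23. Mir5109, the smallest of the 5, had 83921 and 89988 reads, 1.16% and 0.921%, with a log2 ratio of -0.34 (interval -0.353 to -0.326). The 5 together took 38.4% of the control and 31.4% of the telomere library, a log2 ratio of -0.29. 

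Gm15662, a transcribed unprocessed pseudogene of 159 nt, had 659108 reads in the control library and 676086 in the telomere library. Its share went from 9.15% to 6.92%, and its log2 ratio of -0.40 (interval -0.408 to -0.398) was the lowest of the 8. Gm12054, a transcribed processed pseudogene of 378 nt, had 69471 and 88284 reads, 0.964% and 0.903%, and a log2 ratio of -0.094 (interval -0.108 to -0.080). The pseudogene entries thus stood near opposite ends of the range of the 8. Lars2, the protein-coding entry, had 342107 and 439568 reads, 4.75% and 4.50%, with the log2 ratio nearest to 0, at -0.078 (interval -0.085 to -0.072).

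**Figure D1:**
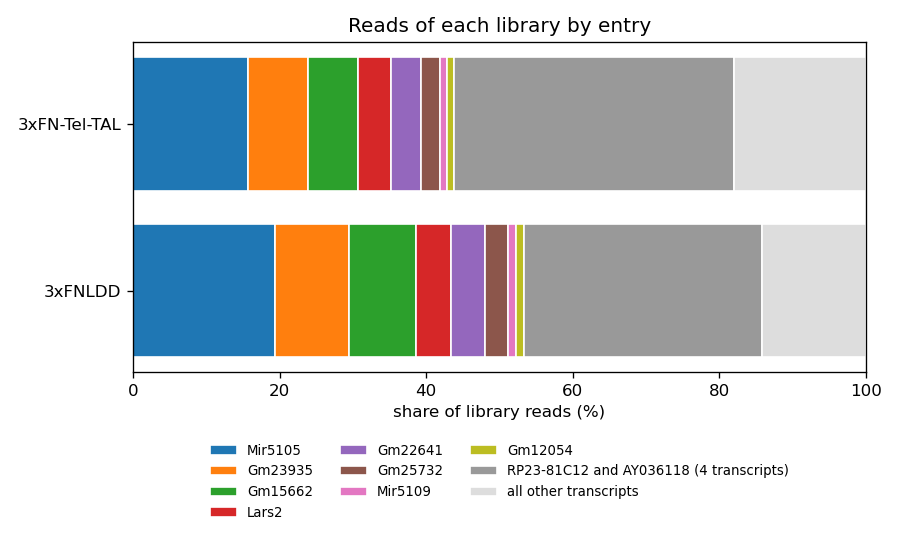
Share of library reads (%, horizontal axis) in the 3xFNLDD and 3xFN-Tel-TAL libraries, 1 stacked bar per library, split into the 8 entries, the 4 RP23-81C12 and AY036118 transcripts and all other transcripts. The 8 entries fill 53.3% of the control bar and 43.7% of the telomere bar, and the order of their sizes is the same in both.

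Summed, the 8 entries had 3838881 reads in the control library and 4276150 in the telomere library, a ratio of 0.821 and a log2 ratio of -0.28 (interval -0.286 to -0.282). Every other transcript together went from 46.7% to 56.3%. Shares of a library add up to the whole, so a lower share of the 8 and a higher share of the rest are a single measurement, and a fall of these entries and a gain of other RNAs cannot be told apart. Nor can fewer cells contributing RNA be told apart from less RNA per cell. 

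All 8 log2 ratios lay below 0, as did those of 22.0% of the 2473 transcripts. None of the 8 was above a 1.4-fold ratio of RPM (39.6% of the 2473 were), a mark which the study's methods set on the ratio of read counts, and none was below its reciprocal (7.72% were). These counts are a description, because the entries were chosen with the ratios of these libraries known. Set against the median of the 2473, the log2 ratios differed by -0.45 (Lars2) to -0.78 (Gm15662), and between 8.94% and 18.0% of the 2473 had a lower ratio than an entry of the set. Other short transcripts did not all lie there: of the 24 other transcripts of up to 200 nt with enough reads, 6 were below 0, and their median was 0.44. Of 37 other transcripts typed as pseudogenes with enough reads, 21 were below 0, with a median of -0.17. Both sets hold only transcripts whose length and type could be taken from GENCODE M1.

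The ratios ran from Gm15662 (-0.40) through Mir5109 (-0.34), Gm23935 (-0.33), Mir5105 (-0.30), Gm25732 (-0.23), Gm22641 (-0.20) and Gm12054 (-0.094) to Lars2 (-0.078). Among neighbours in that order, the counting intervals overlapped for Mir5109 with Gm23935 and for Gm12054 with Lars2, and for no other pair. Against each other the entries moved little: Mir5105 held 36.3% of the reads of the 8 in the control library and 36.0% in the telomere library, and Lars2 held 8.91% and 10.3%. The widest shift within the set was that of Lars2 against Gm15662, whose quotient of reads was 0.519 in the control and 0.650 in the telomere library, a 1.25-fold difference. Such quotients do not depend on how the libraries are scaled.

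**Figure D2:**
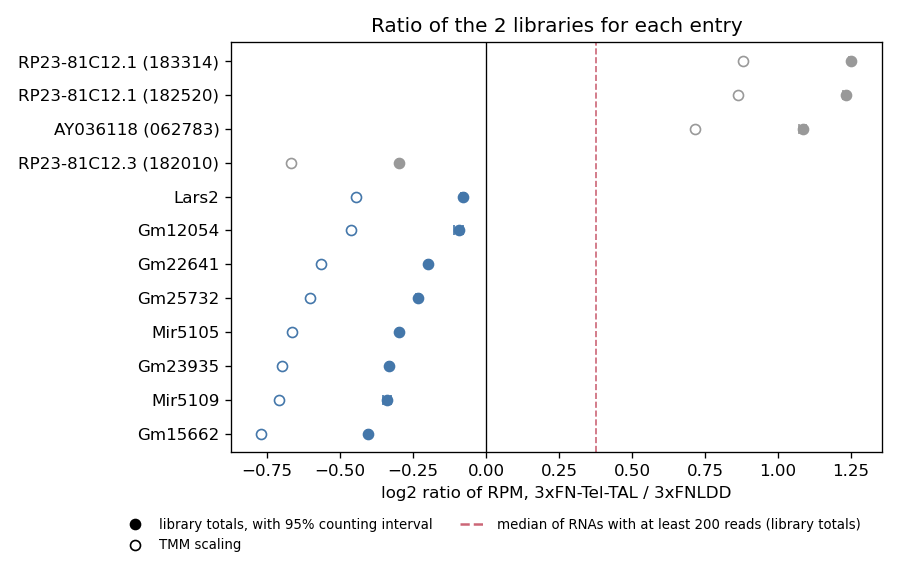
Log2 ratio of RPM, 3xFN-Tel-TAL over 3xFNLDD (horizontal axis), for the 8 entries (blue) and the 4 RP23-81C12 and AY036118 transcripts (grey, with the last digits of the transcript identifier). Filled points use library totals with 95% counting intervals, open points TMM scaling, and the dashed line marks the median of 0.37 of the 2473 deeper transcripts. All 8 blue points lie left of 0 under both scalings.

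The scaling set the size of these ratios. Library totals include the 8 entries themselves, and scaling by TMM (trimmed mean of M-values), which rests on the bulk of the transcripts, moved every log2 ratio down by 0.37, so that the 8 ran from -0.77 to -0.45. On that scale 6 of the 8 were below the reciprocal of 1.4, where 16.5% of the 2473 transcripts were, and 8 were below 0, where 49.1% were.

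The other 4 transcripts above the 0.8% share split in direction. RP23-81C12.3 took 24.7% and 20.1% of the libraries with a log2 ratio of -0.30 (interval -0.303 to -0.297), which overlapped the interval of Mir5105. Both RP23-81C12.1 transcripts and AY036118 had log2 ratios of 1.25, 1.23 and 1.08, so that no entry of the set shared their direction. Just inside the 0.8% share stood Gm12054 and Mir5109. Just outside it were Rnu3b3, a U3 small nucleolar RNA, with 0.172% of the control and 0.732% of the telomere library, and Rn7sk, the RNA that holds back transcription elongation factor P-TEFb, with at most 0.486%.

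Per length, the entries spanned more than their shares. The levels in the control library were 2359045 RPM per kb for Mir5105 and 1779573 for Gm23935, and in the telomere library 1919953 and 1414600. Gm15662, Gm22641 and Gm25732 formed a middle group, from 519991 to 575247 RPM per kb in the control library and from 435006 to 465276 in the telomere library. Mir5109 was at 133859 and 105817, Gm12054 at 25504 and 23894, and Lars2 at 12232 and 11587. These levels are nominal for entries of 57 to 87 nt, since such short entries leave few positions where a sequenced fragment can lie. By base content 4 entries (Mir5105, Gm23935, Gm25732 and Gm22641) were at least 70% G and C, from 70.1% to 74.4%, which 0.177% of the annotated listed transcripts reached. The other 4 lay between 50.3% and 52.9%, near the median of 50.7%.

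**Figure D3:**
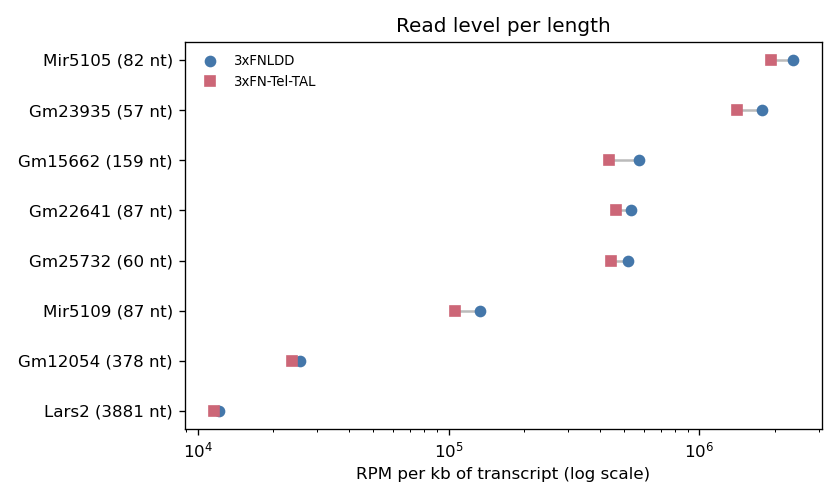
Read level per length, in RPM per kb of transcript on a log axis, of each entry in the 3xFNLDD (circles) and 3xFN-Tel-TAL (squares) libraries, with transcript lengths in brackets. The control point lies to the right of the telomere point for each of the 8, from 2359045 RPM per kb for Mir5105 down to 12232 for Lars2.

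Most reads assigned to transcripts typed as microRNA fell on these entries, which follows in part from their choice by read share. Types were known only for the 45887 of 48876 listed transcripts matched to GENCODE M1, so the counts by type leave out the rest. Of 467 listed transcripts typed as microRNA, the 5 entries held 99.6% of the reads in both libraries, and the remaining 462 held 10653 and 11947 reads, with a median total of 4 reads. Only 3 of the 462 had at least 200 reads, and all 3 lie on genomic copies of Gm23935. Gm24187, 98.2% identical to Gm23935, had 4218 reads in the control and 4762 in the telomere library, with a log2 ratio of -0.26. Gm25911, 96.5% identical, had 4122 and 3558 reads (log2 ratio -0.65), and Gm23388, 94.5% identical, had 270 and 230 (log2 ratio -0.67). All 3 copies had a ratio below 0, as Gm23935 did, and together they made 80.8% and 71.6% of the microRNA reads outside the set. None of the 140 other entries with a Mir symbol reached 200 reads. Among 1946 transcripts typed as pseudogenes, Gm15662 and Gm12054 held 85.3% of the reads in the control and 74.4% in the telomere library, again in part by that choice.

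A BLAST search of the genome with each sequence gave alignments outside the entry's own place for 7 of the 8, at 85% identity or more and an E-value of at most 1e-05. Gm23935 had 9 further copies on 6 chromosomes, 2 of them identical over all 57 bases (on chromosomes 4 and 9). No listed transcript with a GENCODE M1 position covers those 2, and listed transcripts without such a position could not be checked. Gm15662 had 19 on 13 chromosomes, 11 of which spanned over 90% of its length at 89.9% identity or more. Gm25732 had 6 copies, Gm22641 had 6 and Mir5109 had 9, those of Gm22641 and Mir5109 all partial. Mir5105 had 2 partial copies, on chromosome 1, and Lars2 had 29 alignments to short parts of its transcript. The search with Gm12054 gave none at that E-value, although its first bases do align to AY036118 and the search with AY036118 found the place of Gm12054. Reads from such places cannot be told apart from reads of the entry where the bases are the same, and how the authors treated reads with several matches is not given in the sources used here. No 31-base word was shared between the annotated sequences of any of the 8. Bases flanking the entries were left out of that comparison. It therefore cannot show whether a read that reaches past an entry could be placed at another.

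Of the 8 entries, 4 overlap another annotated gene. Mir5105 sits in an intron of Cdk8 on the same strand, Gm23935 in an intron of Zc3h7a, Gm15662 in an intron of Tmtc2 and Gm22641 in an intron of Fgfr2, the last 3 on the opposite strand to the gene. Gm25732, Mir5109, Gm12054 and Lars2 overlap no other annotated gene. The library kit does not mark strand, so reads from either strand of these places were counted alike.

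Several entries follow each other in the same order at separate places in the genome. A match to Gm25732 was followed by a match to Gm23935 at 4 places on 4 chromosomes, with 24 to 54 bases between them, the entries' own places on chromosomes 4 and 16 among them. Around those own places, the sequences aligned over 361 bases at 90.6% identity. A match to Gm22641 was followed by a match to the 3′ part of Lars2 at 2 places, with 21 and 22 bases between, and the Lars2 part was followed by a match to Gm25732 at 2 places, with 115 and 122 bases between. The order that joins these pairs is Gm22641, Lars2, Gm25732 and Gm23935, whose log2 ratios in that order were -0.20, -0.078, -0.23 and -0.33. It was pieced together from pairs at different places, and no single place held more than a pair. Some matches were partial: those to Gm25732 after the Lars2 part were 49 and 40 bases long. Mir5105, Mir5109, Gm15662 and Gm12054 were not within 500 bases of another entry's match.

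**Figure D4:**
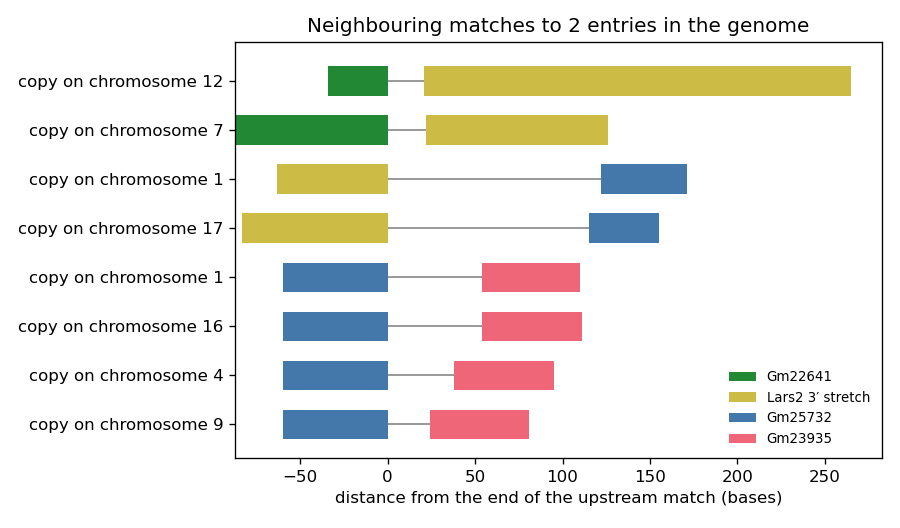
Places in the genome where matches to a pair of entries stand side by side, 1 row per place, drawn by distance in bases from the end of the upstream match. The 4 lowest rows show Gm25732 before Gm23935 at a gap of 24 to 54 bases, and the 4 upper rows the pairs that include the 3′ stretch of Lars2.

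Gm12054 joined another abundant transcript by sequence. The RP23-81C12 transcripts were not compared with any entry, because GENCODE M1 gave no sequence for them. Its first 56 bases aligned at 91.1% identity to the last bases of AY036118 (positions 661 to 714 of 714), and the run of 24 bases printed in capitals is the same in both. Their ratios differed: AY036118 had 72829 and 209508 reads and a log2 ratio of 1.08, against -0.094 for Gm12054. Gm12913, a pseudogene on a copy of AY036118 that shares 25-base words with Gm12054, had 1064 and 874 reads and a log2 ratio of -0.72.

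Lars2 was listed with a single transcript, ENSMUST00000038863, of 3881 nt in 21 exons (chr9:123276058-123371782 in NCBIM37, + strand), and GENCODE M1 holds no other, so its transcripts could not be set against each other. Of the 29 alignments, 20 lay at positions 3009 to 3406, a stretch of 398 nt or 10.3% of the transcript, in the last exon (from position 2716) and beyond the end of the coding sequence at 2892. The bounds of this stretch were set by the 15 alignments of at least 80 bases, on 12 chromosomes at 86.6% to 98.8% identity. The 30 bases shown above come from this stretch. The 9 alignments outside the stretch were 41 to 61 bases long and lay between positions 3731 and 3814. The deposited counts give no position of a read along a transcript, so the share of the Lars2 reads that fell on the stretch was not measured. Gm15564, listed over a copy of the stretch at 97.6% identity, had 20 and 12 reads. AA474408, which shares 31-base words with Lars2, had 83 and 124 reads and a log2 ratio of 0.14.

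Lars2 stood far from genes of like function, but it was chosen for its read share, so such a gap follows in part from the choice. The other genes of mitochondrial aminoacyl-tRNA synthetases and the glutaminyl-tRNA amidotransferase, which load amino acids on mitochondrial tRNAs, numbered 21 (Gatb is listed under its older symbol Pet112). All 21 were listed, with 749 and 1204 reads in all. Their levels ran from 0.694 to 10.8 RPM in the control and from 1.74 to 11.0 in the telomere library, and none of the 21 reached a total of 200 reads, so none entered the ratio counts. Tars2, the threonyl enzyme, had more reads than the other 20, with 78 and 108. By reads summed over both libraries it was followed by Iars2, the isoleucyl enzyme, with 62 and 90, and Pet112, an amidotransferase subunit, with 49 and 101. Per length, Lars2 was 8622-fold above the median of the 21 in the control library and 6866-fold in the telomere library. These folds are nominal, since where the Lars2 reads fell along the transcript was not measured. Lars, the cytosolic leucyl enzyme, had 21 and 48 reads. Of the 18 cytosolic synthetase genes, 6 had at least 200 reads, with a median log2 ratio of 0.24 for summed transcripts and none below 0, and 2 of the 6 were above the 1.4-fold mark, Qars (0.56) and Wars (2.20). Counted by transcript, as for the 39.6% above the mark and the 22.0% below 0 among the 2473, 6 transcripts of these genes had enough reads, with a median of 0.57, 3 above the mark and 1 below 0.

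**Figure D5:**
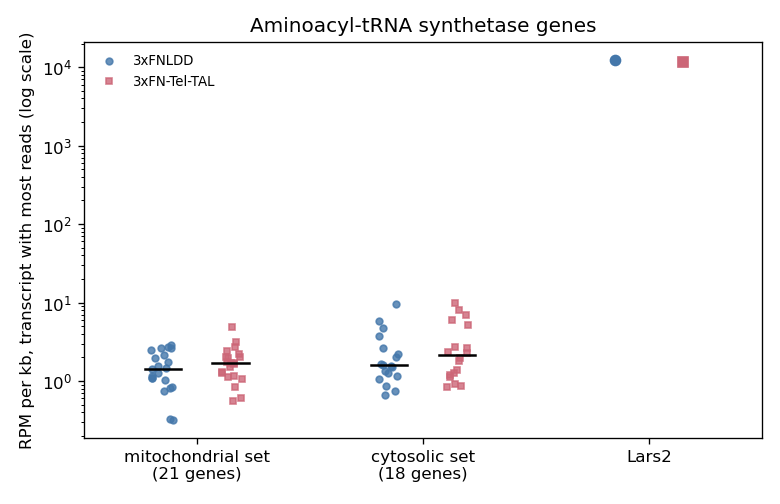
Read level per length (RPM per kb, log axis) of the transcript with most reads of each synthetase gene, in the 3xFNLDD (circles) and 3xFN-Tel-TAL (squares) libraries, with the median of each set as a bar. Lars2 lies at 12232 and 11587 RPM per kb, and every other gene at or below 9.82.

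Each of 3 genes annotated as ribosomal RNA had fewer reads than any of the 8 entries. That follows from the choice of the entries by read share, and does not rank ribosomal RNA against them. The 4 RP23-81C12 and AY036118 transcripts, derived from ribosomal DNA, took 32.5% of the control and 38.3% of the telomere library. The mitochondrial 16S rRNA mt-Rnr2 had 10965 and 9721 reads (log2 ratio -0.61), the mitochondrial 12S rRNA mt-Rnr1 5292 and 6229 (log2 ratio -0.20), and the 5.8S entry n-R5-8s1 986 and 1603 (log2 ratio 0.26).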

How the data were processed

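Per the labels and the study's methods, RNA from anti-FLAG precipitates was made into libraries with the Illumina TruSeq RNA v2 kit, which does not mark strand, and sequenced on a MiSeq. The submitters' processing notes name cutadapt and the builds GRCm38 and mm10. The aligner, the annotation release and the handling of reads with several matches are not given in the sources used here. For each library the authors deposited a table with a whole-number read count per Ensembl transcript, and an RPM column, which equalled the count per 1000000 summed counts within 4.75e-05. The totals were 7206183 and 9774844 reads.

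The tables were joined on Ensembl identifier. RPM ratios of the libraries were computed from the counts with exact 95% Clopper-Pearson intervals (scipy 1.17.1), with no pseudocount and no test, since there was 1 library per condition. Background counts used transcripts with a total of at least 200 reads and a 1.4-fold mark. Alternatives were TMM (edgeR 4.0.16) and median-of-ratios (DESeq2 1.42.0) scaling, totals without transcripts above 1% of a library or without the 8 entries, a pseudocount of 1, and other read minimums. Types, lengths and sequences came from GENCODE M1 on NCBIM37, matched by transcript identifier for 45887 of 48876 transcripts, and genomic copies from BLAST 2.17.0+ (at least 85% identity, E-value up to 1e-05). The interval script was checked on simulated data. Entries not of the set were named by fixed rules: the rDNA-derived transcripts, those nearest the share threshold, copies and transcripts that share words, rRNA genes and the synthetase and marker lists. The 5.8S entry, Gm12913, Gm25911, Gm23388, Lars, Qars and Wars were chosen after their values were seen. The 8 entries and all lists were chosen with earlier results of these data known.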

Additional observations from a re-analysis of the deposited data

How the results depend on the processing

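No paired analysis was possible because each condition had 1 library, and for the same reason no replicate could be left out. All 8 entries stayed below 0 under each of the 4 other scalings and with a pseudocount of 1 (40 of 40 values). This outcome was fixed beforehand. Each of these scalings moved every log2 ratio down, by a shift of -0.27 to -0.37, and a pseudocount of 1 is negligible beside such counts. The summed log2 ratio of the 8 went from -0.28 to -0.65 (TMM), -0.65 (median of ratios), -0.60 (totals without transcripts above 1% of a library) and -0.55 (totals without the 8 entries). The Lars2 log2 ratio went from -0.078 to -0.45, -0.45, -0.39 and -0.35 in the same order. Transcripts above 1.4-fold numbered 980, and 441, 442, 489 and 536 under these scalings. They numbered 2469 with a minimum of 100 reads and 12603 among all transcripts with reads in both libraries. Those below the reciprocal numbered 191, and 408, 408, 352, 310, 376 and 6167. These scalings shift every ratio by the same amount. The lower minimums count more transcripts, so their counts are not shares of the 2473. The 2 transcripts with at least 200 reads that share a 31-base word with an entry had a median log2 ratio of -0.063, and 3 with at least 20 reads had -0.26. With 50-base words no such transcript was left. The comparison of Lars2 transcripts, with its alternatives, was not run, since 1 transcript is listed. The counts hold no positions, and positions and types come from an older build than the alignment.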
